A study of Mus musculus with 6 samples.

Results

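The genes described here encode heat shock proteins and chaperonins, the proteins that fold other proteins and keep them from clumping. Members were taken by gene name: the Hsp70, Hsp90, Hsp110 and small heat shock families, the J proteins (Dnaja, Dnajb and Dnajc), the chaperonin subunits Tcp1 and Cct2 to Cct8, Hspd1, Hspe1, and the transcription factor gene Hsf1. Pseudogenes and genes with fewer than 60 reads summed over the 6 libraries were left out. This gave 71 members among the 18491 genes of the table, and all 71 passed the filter on low counts.

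The RNA-seq libraries, 3 described as WT and 3 as KO, come from mouse bone marrow cells whose label is haematopoietic stem progenitor cells, sorted by FACS 8 months after the animals received poly(I:C). The design text names a Robo1 deletion by Mx1-cre after 3 doses of poly(I:C), a double-stranded RNA that induces interferon and so drives the interferon-responsive Mx1 promoter. The titles and treatment fields of the same libraries name shRNA control and shRNA against ROBO1, with ROBO1, ROBO2 and ROBO3 given in turn in the treatment field, and the genotype field reads WT or ROBO1 knockdown. The 3 KO libraries are called knockout here, following the description field. The strain, age and sex of the mice, whether animals were pooled, and whether the WT mice carried the Cre are not given in the sources used here. No source says that each library is a different animal, so every p-value below reflects library-to-library spread that may be technical. Robo1 itself was not analysed here.

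Hsp70 proteins bind exposed hydrophobic stretches of unfolded proteins and release them in cycles of ATP use. J proteins bring them their clients and start ATP hydrolysis, and nucleotide exchange factors such as Hsp110 reset the cycle. Hsp90 finishes the folding of kinases and steroid receptors. Chaperonins enclose a client in a barrel: TRiC in the cytosol folds actin and tubulin, and Hspd1 with its lid Hspe1 works in mitochondria. Heat shock factor Hsf1 switches on the inducible members by binding heat shock elements, repeats of the letters GAA and TTC, and members of the endoplasmic reticulum (ER) answer instead to the ER stress response element, the letters CCAAT and CCACG with 9 free bases between them. Blood stem cells are known for a low rate of protein synthesis and for sensitivity to misfolded protein.

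Both elements were looked for, on both strands, in the 250 bases upstream of annotated starts in the RefSeq promoter table (GRCm38.p6), in which 57 of the 71 members matched by symbol, with 73 windows. For 32 of the 73 windows the start coincides with that of a GENCODE transcript, which is not so for the Hspa5, Hsp90b1 and Hspd1 windows printed here. The ER stress response element was spelled out in 3 of the 73 windows (4.11%) and in 37 of all 32851 windows (0.113%). The 3 genes are Hspa5 and Hsp90b1, which were higher in knockout under every scaling tried, and Dnajc3, which did not pass the test. Of the 18 tested genes with the element over all genes, these 3 included, 6 were higher and 4 lower with TMM. The windows of the first 2 are printed to show where the element lies, with the element in capitals. That of Hspa5 is chr2:34771840-34772089, plus strand, and that of Hsp90b1 is chr10:86705445-86705694, minus strand, with one copy in each orientation.
Hspa5: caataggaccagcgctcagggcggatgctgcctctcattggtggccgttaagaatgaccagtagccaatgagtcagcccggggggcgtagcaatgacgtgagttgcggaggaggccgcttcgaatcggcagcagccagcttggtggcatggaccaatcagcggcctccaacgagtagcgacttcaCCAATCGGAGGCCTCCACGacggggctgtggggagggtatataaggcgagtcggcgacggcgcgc
Hsp90b1: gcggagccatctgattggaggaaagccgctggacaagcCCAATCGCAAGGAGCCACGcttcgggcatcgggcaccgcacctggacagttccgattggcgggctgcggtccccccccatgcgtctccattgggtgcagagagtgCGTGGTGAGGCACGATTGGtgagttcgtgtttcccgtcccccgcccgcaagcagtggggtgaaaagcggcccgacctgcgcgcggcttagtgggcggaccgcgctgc

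The short heat shock element forms GAANNTTC or TTCNNGAA occurred in 17 of the 73 member windows (23.3%) and in 12.8% of all windows. The triple form, GAA, TTC and GAA (or TTC, GAA and TTC) with 2 free bases after each of the first repeats, which contains both short forms, occurred in 4 of the 73 windows (5.48%) and in 0.466% of all windows. The genes of those 4 windows are Hspd1, Hspe1 and Dnajb6. Dnajb6 has 2 overlapping windows that hold the same match, so the windows are not independent. Hspd1 and Hspe1 lie head to head on chromosome 1, and their 2 overlapping triple matches are the same bases, from 55088059 to 55088076, read from either gene. The Hspd1 window is shown for that shared element (chr1:55087933-55088182, minus strand). The windows of the stress-inducible Hspa1a (chr17:34972157-34972406, minus strand) and Hspa1b (chr17:34959239-34959488, minus strand) are shown because they are near-copies, with 3 differences in 250 bases. Capitals mark the matches.
Hspd1: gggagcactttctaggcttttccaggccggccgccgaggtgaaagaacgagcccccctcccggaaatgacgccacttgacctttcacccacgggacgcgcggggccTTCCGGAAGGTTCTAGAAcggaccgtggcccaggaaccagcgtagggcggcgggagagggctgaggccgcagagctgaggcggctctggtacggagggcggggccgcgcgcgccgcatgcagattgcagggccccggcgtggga
Hspa1a: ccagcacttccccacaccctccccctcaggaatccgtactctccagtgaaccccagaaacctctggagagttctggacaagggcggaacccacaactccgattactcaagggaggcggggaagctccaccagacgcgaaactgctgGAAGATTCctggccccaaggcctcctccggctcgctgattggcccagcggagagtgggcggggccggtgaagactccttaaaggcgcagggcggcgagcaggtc
Hspa1b: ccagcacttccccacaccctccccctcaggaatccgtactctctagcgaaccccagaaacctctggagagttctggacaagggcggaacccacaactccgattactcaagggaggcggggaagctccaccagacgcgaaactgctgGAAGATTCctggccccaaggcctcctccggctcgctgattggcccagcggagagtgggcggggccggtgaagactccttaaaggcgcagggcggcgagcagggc
Of the 14 members with a window that were called higher with TMM scaling, 4 held a short form, against 2 of the 10 called lower and 9 of the 33 not called. These matches are a description of letters and not of binding.

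Libraries held 42235077 to 58106099 counts. In knockout fewer genes took more of the counts: the 100 most abundant genes held 59.7 to 60.8% of counts against 42.3 to 43.3% in wild type, and mitochondrially encoded transcripts 4.49 to 4.98% against 2.42 to 3.13%. How the libraries are scaled therefore decides many directions below. Values are CPM, read counts relative to library size, with library sizes scaled by TMM, which assumes that most genes do not change, and the result with total counts as the only scaling is given beside them. TMM put the median tested gene at a log2 fold change of -0.09 and total counts at -1.22. Markers of other blood cells moved too. With TMM, 8 of 11 eosinophil, basophil and mast cell markers were higher, with a summed level of 8014 to 9355 CPM in wild type and 49856 to 55564 CPM in knockout. Of 8 neutrophil markers 5 were higher and 1 lower (2394 to 2765 against 8392 to 8712 CPM), and of 7 red cell markers 4 were higher and 0 lower (1411 to 1902 against 4751 to 5719 CPM). Of 9 B and plasma cell markers 3 were higher and 3 lower (13341 to 14335 against 41708 to 43856 CPM). Their median change was -0.02 (log2), so the rise of that sum does not describe the list. Of 6 T and NK cell markers 0 were higher and 1 lower (15.3 to 16.0 against 9.24 to 10.3 CPM), and of 5 macrophage markers 1 was higher and 1 lower (90.9 to 94.6 against 87.8 to 92.3 CPM). With total counts 6 eosinophil, basophil and mast cell markers were higher and 4 lower, 1 neutrophil marker was higher and 4 lower, 4 red cell markers were higher and 2 lower, and 2 B and plasma cell markers were higher and 5 lower. The 6 T and NK cell markers and 3 of the macrophage markers were lower. With TMM the 10 stem and progenitor markers summed to 170 to 175 CPM in wild type and 173 to 181 CPM in knockout, with 1 higher and 3 lower. With total counts 0 of these 10 were higher and 9 lower. Their sum then went from 255 ± 10.9 to 120 ± 3.64 CPM (mean ± SD, n = 3 each). No listed marker in the table was at 0 in all libraries. The part of these markers, and of depth or composition, in the chaperone results was not tested, and fewer cells of a type cannot be told apart from less RNA per cell.

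With TMM 21 of the 71 members rose in knockout and 12 fell (edgeR, adjusted p under 0.05), 29.6% and 16.9% of them, where 17.2% of all 15474 tested genes were higher and 14.4% lower. With total counts 5 members were higher and 58 lower, against 4.24% and 70.7% of all genes. The 5 are Hspa8, Hspa5, Hsp90aa1, Hsp90ab1 and Hsp90b1, and they were higher under both scalings, whereas 13 of the 21 were called lower with total counts. All 12 members that fell with TMM were also lower with total counts. The median member stood at 0.16 (log2) with TMM and at -0.97 with total counts. Counting only called changes of at least 2-fold with TMM, 6 members were higher and 4 lower, against 8.26% and 3.45% of all genes. The 3 knockout libraries all lay above the 3 wild-type libraries for 29 members and all below for 15 in TMM-scaled CPM, where 22.2% and 24.4% of all genes did so. In total-count CPM this was so for 5 and 58 members (4.85% and 76.1% of all genes), and in the authors' length-scaled values (FPKM) for 5 and 56 (4.82% and 74.3%). A correction for exon length and GC content left 30 members higher and 6 lower, where 20.7% and 9.06% of all genes were called. The 21 that rose also rose when any 1 library was left out, and 9 to 13 members were lower.

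**Figure D1:**
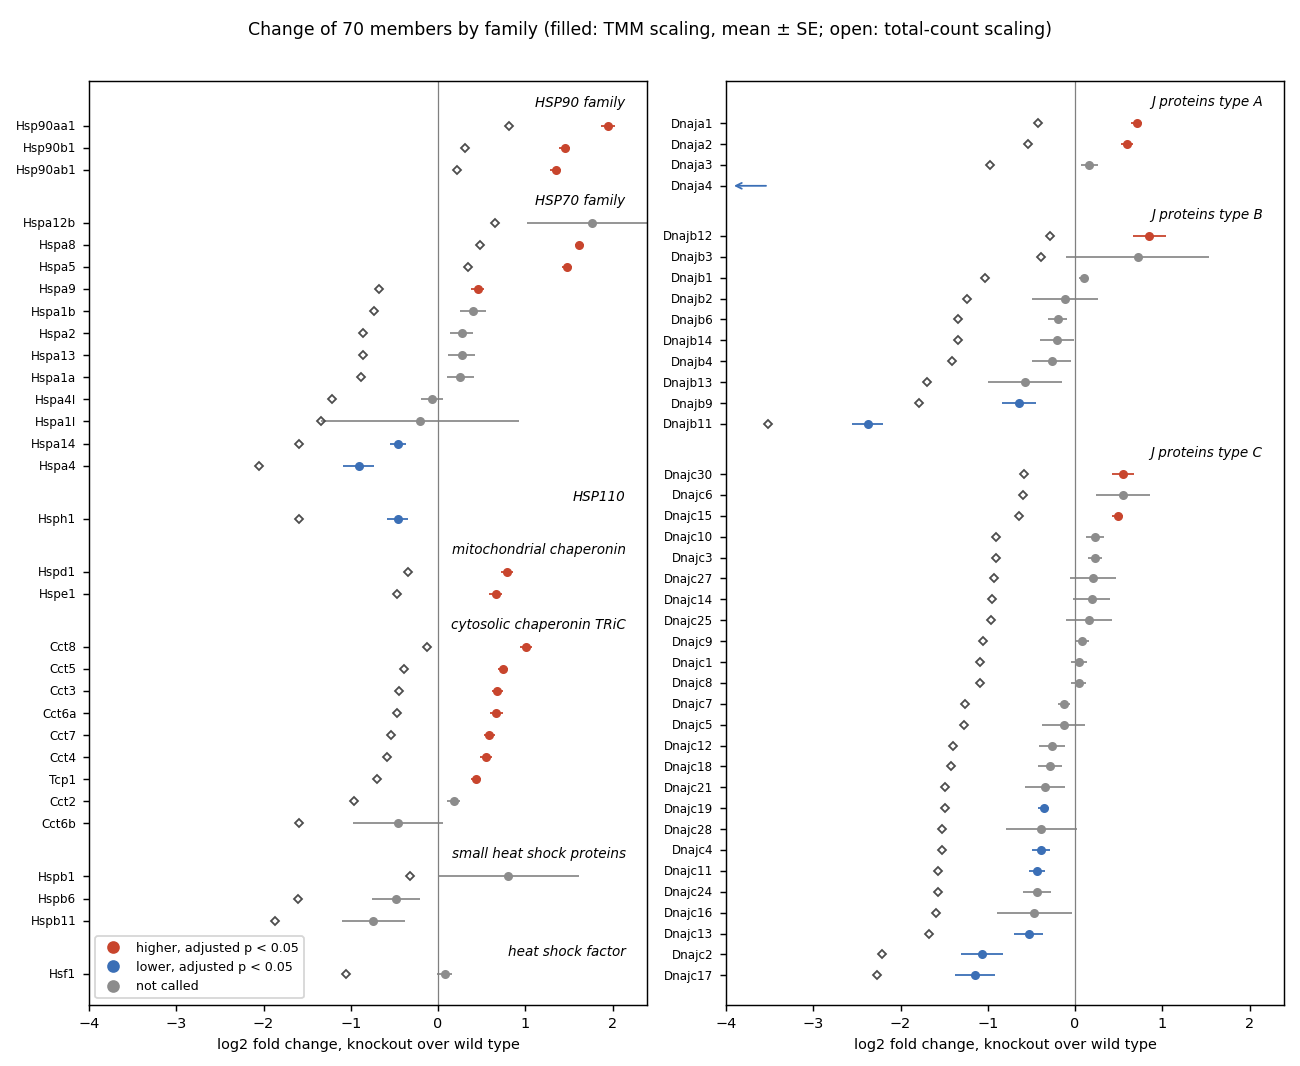
Log2 fold change, knockout over wild type, of 70 members, grouped by family (x axis: log2 fold change; filled points: TMM scaling with standard error, coloured by call at adjusted p under 0.05; open diamonds: total-count scaling). The HSP90 genes, Hspa8, Hspa5 and the barely detected Hspa12b, which was not called, lie above 0 under both scalings, the 8 main TRiC subunit genes, Hspd1 and Hspe1 lie above 0 with TMM and below 0 with total counts, and Dnaja4, with no count in knockout, lies beyond the axis (arrow).

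The 3 Hsp90 genes rose together under both scalings. Hsp90ab1 encodes the constitutive cytosolic form, Hsp90aa1 the stress-responsive cytosolic form, and Hsp90b1 the form of the ER, also called Grp94. Hsp90aa1 (chromosome 12, 110690605 to 110702728, minus strand) stood at 501, 444 and 528 CPM in wild type and at 2027, 1870 and 1794 CPM in knockout, a 3.86-fold rise (log2 1.95, SE 0.08, adjusted p = 1.76e-07, and 0.82 with total counts). Hsp90ab1 stood at 1344, 1213 and 1293 CPM and at 3469, 3218 and 3121 CPM (log2 1.35, SE 0.06, adjusted p = 4.09e-07, and 0.22 with total counts). Hsp90b1 stood at 348, 379 and 389 CPM and at 1027, 988 and 1033 CPM (log2 1.45, SE 0.06, adjusted p = 2.3e-07, and 0.32 with total counts). Every knockout library lay above every wild-type library for each of the 3 genes. The ratio of Hsp90aa1 to Hsp90ab1, taken within a library from FPKM values, does not depend on scaling. With 3 libraries against 3 an exact two-sided permutation test cannot give a p below 0.1, so such ratios are given with no test. It was 0.281, 0.278 and 0.309 in wild type against 0.441, 0.441 and 0.433 in knockout, so that the inducible form gained on the constitutive form by 1.51-fold with no overlap of the groups. No 100-base stretch of the Hsp90aa1 transcripts occurs in those of Hsp90ab1.

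In the Hsp70 family 3 of 12 members rose and 2 fell with TMM, and 2 rose and 8 were lower with total counts. Hspa8, the constitutive cytosolic Hsp70 also called Hsc70, was the most abundant member per length, at 1803 ± 31.8 FPKM in wild type and 2534 ± 85.9 FPKM in knockout (mean ± SD, n = 3 each). Its CPM was 3490, 3361 and 3437 in wild type against 10637, 10098 and 10847 in knockout (log2 1.62, SE 0.05, adjusted p = 6.39e-08, and 0.48 with total counts). SnoRNA genes of the Snord14 family (Snord14c, Snord14d and Snord14e) lie within Hspa8 exons as annotated, and their reads cannot be separated from it. Hspa5, the Hsp70 of the ER also called BiP, stood at 2533, 2545 and 2520 CPM and at 6884, 6857 and 7409 CPM (log2 1.48, SE 0.05, adjusted p = 9.6e-08, and 0.34 with total counts). The groups did not overlap for either gene. The ratio of Hspa5 to Hspa8 in FPKM went from 0.638 ± 0.0125 to 0.567 ± 0.0200 (mean ± SD, n = 3 each), with every knockout library lower. Hspa9, the mitochondrial Hsp70 also called mortalin, went from 77.6, 81.7 and 80.4 CPM to 108, 117 and 103 CPM, a rise of 0.45 (log2, SE 0.07, adjusted p = 0.00109), whereas total counts gave -0.68 and called it lower.

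The stress-inducible Hsp70 genes did not follow Hspa8. Hspa1a (chromosome 17, 34969190 to 34972156) stood at 13.2, 17.2 and 17.2 CPM in wild type and at 20.8, 21.0 and 14.9 CPM in knockout, with overlapping groups (log2 0.25, SE 0.16, adjusted p = 0.264). Hspa1b, its neighbour, stood at 5.37, 4.63 and 4.87 CPM and at 5.79, 7.23 and 6.61 CPM (log2 0.40, SE 0.15, adjusted p = 0.0676, and adjusted p = 0.042 after the length and GC correction). With total counts both were called lower (log2 -0.88 and -0.73). Of the 100-base stretches of Hspa1a transcripts 47.1% also occur in Hspa1b, so the split of reads between them is uncertain. Their summed FPKM relative to Hspa8 does not depend on scaling. It depends on that split only through the unlike exon lengths of the genes (2967 and 2803 bases). Reads counted for neither gene would be missing from the sum. The ratio was 0.00424, 0.00522 and 0.00517 in wild type against 0.002, 0.00222 and 0.00159 in knockout, a fall to 0.398 times the wild-type ratio with no overlap. Hspa8 rose by 1.62 (log2) with TMM, and the median tested gene stood at -0.09. A gene at that median thus also falls relative to Hspa8, here and in the ratios to Hspa8 below.

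The remaining members of the Hsp70 family were low or fell. Hspa4, also called Apg-2 and an exchange factor of the Hsp110 kind, fell from 27.3, 37.2 and 36.9 CPM to 21.9, 18.4 and 13.6 CPM (log2 -0.91, SE 0.18, adjusted p = 0.00416). Hspa14, a ribosome-associated Hsp70, fell from 76.5 ± 3.50 to 55.7 ± 6.16 CPM (n = 3 each, log2 -0.46, SE 0.09, edgeR adjusted p = 0.00443), but did not pass after the length and GC correction (-0.19, adjusted p = 0.13). Hspa13 of the ER, Hspa2, known from spermatogenesis, and Hspa4l stood at 0.27, 0.27 and -0.07 (log2 with TMM) and did not pass, and all were called lower with total counts. After the length and GC correction Hspa13 was called higher (log2 0.56, adjusted p = 0.0194). Hspa12b and Hspa1l were below 0.5 CPM in every library and did not pass. Hsph1, the Hsp110 exchange factor that serves Hspa8, stood at 21.0, 26.1 and 21.8 CPM in wild type and 14.5, 17.6 and 18.0 CPM in knockout. It fell by 0.46 (log2, SE 0.12, adjusted p = 0.0177), with every knockout library below every wild-type one. It no longer passed without wild type replicate 2 (adjusted p = 0.087), without knockout replicate 1 (adjusted p = 0.0574) or after the length and GC correction (adjusted p = 0.32). Its FPKM relative to Hspa8 was 0.0037, 0.00542 and 0.00403 in wild type against 0.000877, 0.0011 and 0.00109 in knockout.

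Hsf1 (chromosome 15, 76477422 to 76501913), the main heat shock transcription factor, stood at 15.7, 15.6 and 14.6 CPM in wild type and at 16.5, 16.0 and 15.8 CPM in knockout (log2 0.08, SE 0.09, adjusted p = 0.577). The difference was less than 1 SE with TMM, while total counts put Hsf1 at -1.06. Hsf1 activity is set mainly after translation, so the transcript level does not measure it. The related Hsf2 stood at 1.24 ± 0.155 and 1.43 ± 0.275 CPM, and Hsbp1, which encodes a protein that binds Hsf1, at 336 ± 42 and 341 ± 15.4 CPM (mean ± SD of 3 libraries), and neither passed in edgeR (adjusted p = 0.637 and 0.868). The small heat shock protein gene Hspb1, a classical heat-induced gene, was at 0.0848 to 0.418 CPM over the 6 libraries, with 3 to 17 reads each. Hspb6 (2.44 ± 0.424 and 1.76 ± 0.531 CPM) and Hspb11 (2.27 ± 0.171 and 1.35 ± 0.692 CPM, n = 3 each), the latter also called Ift25 and part of the ciliary transport machinery, did not pass either.

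**Figure D2:**
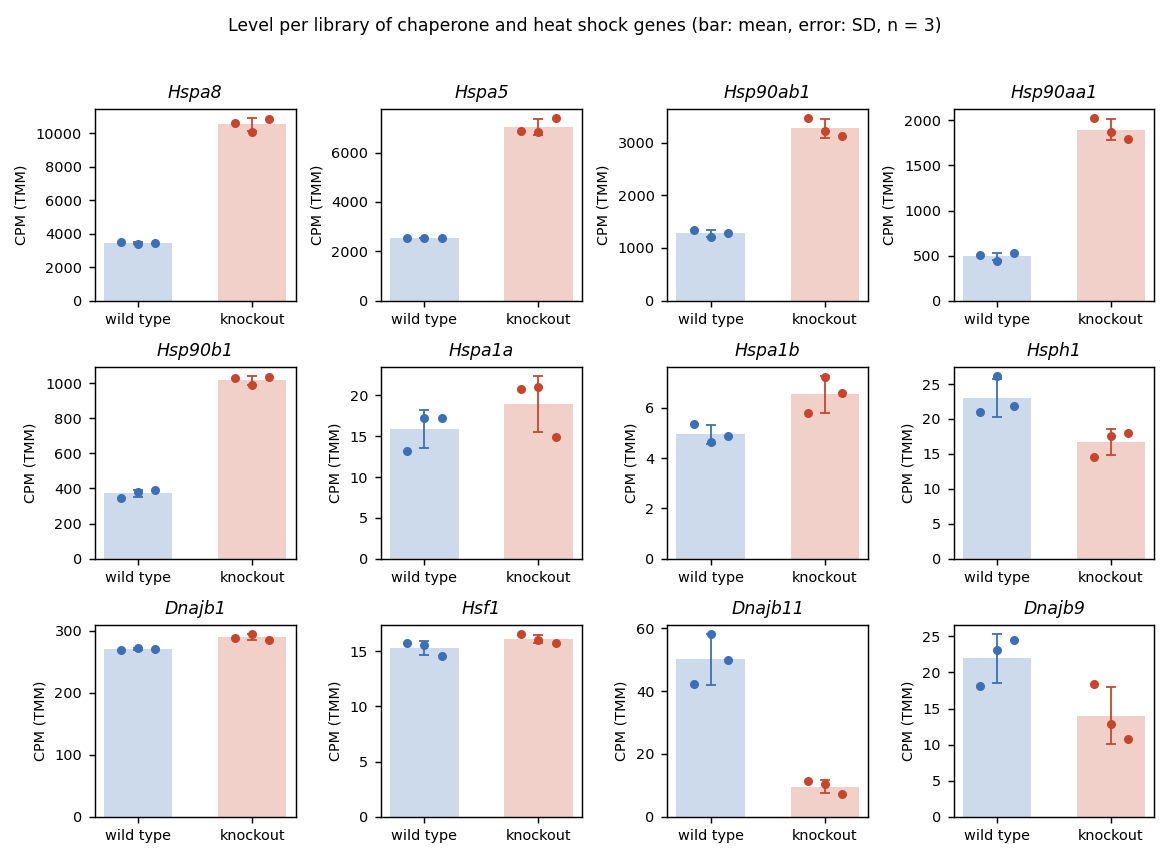
CPM on TMM-scaled library sizes (y axis, from 0) of 12 members in each wild-type and knockout library (points), with the mean (bar) and SD (error bar, n = 3). Hspa8, Hspa5 and the 3 Hsp90 genes stand apart between the groups, Hspa1a and Dnajb9 overlap, the Hsf1 groups differ by less than 1 SE of the fitted change, and Dnajb11 is lower in every knockout library. With total counts Hspa1a, Hspa1b, Dnajb1 and Hsf1 were lower in knockout.

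Both mitochondrial chaperonin genes rose with TMM and were lower with total counts. Hspd1 (chromosome 1, 55077835 to 55088243), which encodes the barrel Hsp60, went from 208, 232 and 239 CPM to 386, 398 and 392 CPM (log2 0.79, SE 0.07, adjusted p = 2.01e-05, and -0.34 with total counts). Hspe1 (55088132 to 55091307), which encodes the lid Hsp10, went from 104, 94.3 and 99.5 CPM to 167, 152 and 150 CPM (log2 0.66, SE 0.07, adjusted p = 9.84e-05, and -0.47 with total counts). The groups did not overlap for either gene. The ratio of Hspd1 to Hspe1 in FPKM was 0.664, 0.808 and 0.783 in wild type against 0.749, 0.843 and 0.838 in knockout, with overlapping groups, so a difference in the balance of the pair, which shares the heat shock element printed above, did not exceed the spread of the libraries. Their first exons overlap on opposite strands, and no source used here gives the strand setting of the counting. Among 7 members listed as mitochondrial, a list that leaves out Dnajc30, 4 rose and 2 fell with TMM, and all 7 were lower with total counts.

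TRiC is built from 8 different subunits in fixed proportion. With TMM 7 of the 8 genes rose, by 0.44 to 1.01 (log2). Total counts put 7 of the 8 lower and none higher. All but Cct2 had a mean above 100 CPM in each group. Of all 1144 genes with a mean of at least 100 CPM, 73.5% rose with TMM. The median TMM change was 0.63 (log2) for the 8 subunits and 0.64 for those 1144 genes. The rise of the subunit genes was thus near that of abundant genes in general. Cct8 had the largest change of the 8, from 327, 374 and 368 CPM to 689, 727 and 733 CPM (log2 1.01, SE 0.07, adjusted p = 4.16e-06, and -0.13, not a call, with total counts). Cct5, the most abundant per length at 418 ± 10.3 FPKM in wild type, went from 643, 619 and 599 CPM to 1015, 1021 and 1087 CPM (log2 0.75, SE 0.06, adjusted p = 1e-05, and -0.39 with total counts). Cct3 and Cct6a stood at 0.68 and 0.67, Cct7 at 0.59, Cct4 at 0.55 and Tcp1, the subunit that gave the complex its name, at 0.44 (SE 0.06 to 0.08), and these 5 fell to between -0.69 and -0.45 with total counts. Cct2 stood at 64.7, 70.1 and 67.5 CPM and at 80.7, 69.8 and 78.3 CPM, with overlapping groups, and did not pass (log2 0.18, SE 0.08, adjusted p = 0.121, and adjusted p = 0.0071 after the length and GC correction). The subunit genes thus changed unequally. Cct2 relative to Cct8, in FPKM, was 0.244, 0.231 and 0.226 in wild type against 0.143, 0.118 and 0.131 in knockout, 0.56 times the wild-type ratio with no overlap. The highest subunit, Cct5, stood 9.33 to 10.5 times above the lowest, Cct2, in wild type and 13.3 to 15.4 times above it in knockout. Cct6b, the testis form of Cct6a, was below 1 CPM in every library.

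**Figure D3:**
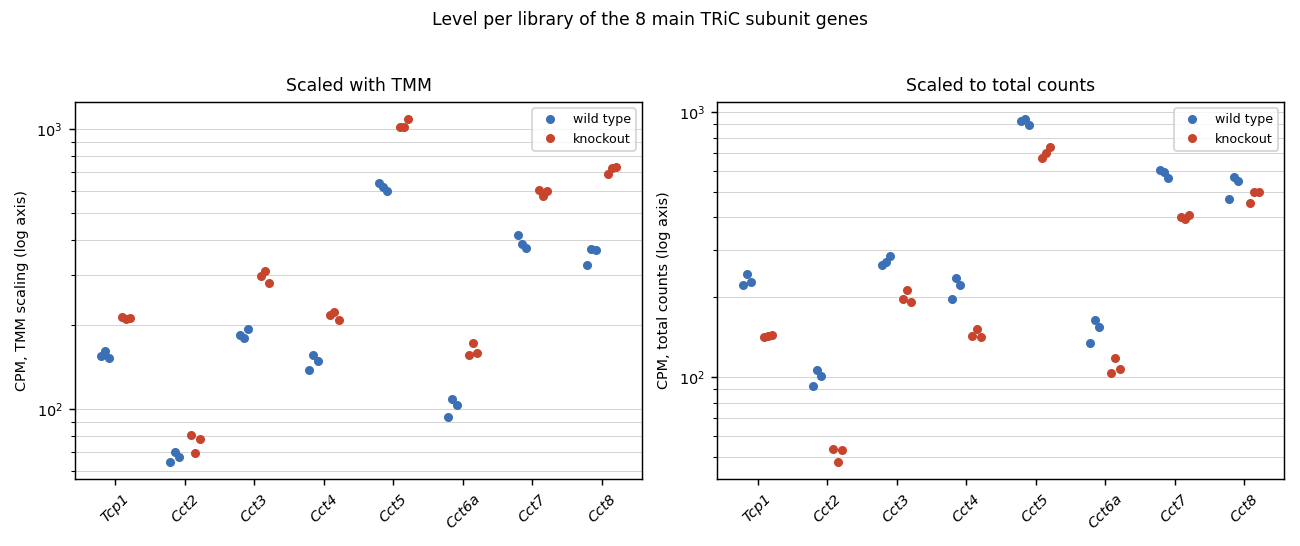
CPM (log axes) of the 8 main TRiC subunit genes in each library, scaled with TMM (left) and with total counts (right). With TMM 7 of the 8 rose in knockout and Cct2 overlapped, and with total counts 7 of the 8 were lower and Cct8 overlapped.

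Among 39 J proteins 5 rose and 9 fell with TMM, 12.8% and 23.1% of them, where 17.2% and 14.4% of all genes did so. With total counts 0 were higher and 36 lower, where 4.24% and 70.7% of all genes were called. The excess of falls with TMM did not hold after the length and GC correction. It left 11 J proteins higher and 5 lower, where 20.7% and 9.06% of all genes were called. With TMM the rises were confined to Dnaja1, Dnaja2, Dnajb12, Dnajc15 and Dnajc30, and each lay below 0 with total counts. Dnaja1, a cytosolic partner of Hspa8, went from 91.7, 96 and 97 CPM to 151, 154 and 161 CPM (log2 0.71, SE 0.06, adjusted p = 2.61e-05, and -0.43 with total counts). Its relative Dnaja2 went from 42.6, 42.2 and 44.0 CPM to 63.5, 66.3 and 64.2 CPM (log2 0.59, SE 0.07, adjusted p = 1.49e-04, and -0.54 with total counts). Exons of Dnaja1 overlap those of Smu1 on the other strand. Dnajb12, anchored in the ER membrane, rose by 0.85 (SE 0.18, adjusted p = 0.00688) from 3.89 ± 0.378 to 7.01 ± 1.46 CPM (mean ± SD), and stood at -0.28 with total counts. Dnajc15 of the mitochondrial inner membrane (log2 0.49, and -0.64 with total counts) and Dnajc30, a mitochondrial protein gene (0.55, and -0.58), were the others.

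Dnajb1, the heat-induced J partner of the Hsp70s also called Hsp40, was the most abundant J protein gene by CPM and did not pass the test with TMM. It stood at 268, 272 and 271 CPM in wild type and 289, 294 and 285 CPM in knockout (log2 0.10, SE 0.05, adjusted p = 0.209). The knockout libraries lay above the wild-type ones in TMM-scaled CPM and below them with total counts (log2 -1.03). After the length and GC correction it passed (log2 0.26, adjusted p = 0.0053). Relative to Hspa8 in FPKM it stood at 0.0596, 0.0636 and 0.0621 in wild type and at 0.0213, 0.0226 and 0.0206 in knockout, 0.348 times the wild-type ratio. The balance of all 39 J protein genes to the 12 Hsp70 genes, as summed FPKM, moved the same way, from 0.281, 0.314 and 0.298 to 0.103, 0.102 and 0.0967. Hspa8 and Hspa5 made up most of that Hsp70 sum, at 2534 and 1437 of 4020 FPKM in knockout (means of 3 libraries). The balance therefore mainly follows these 2 genes. Dnajc9, a histone chaperone, and Dnajc3, the ER protein p58IPK, stood at 0.08 and 0.23 (log2) and did not pass with edgeR (adjusted p = 0.518 and 0.0586). Dnajc3 did pass with DESeq2 (adjusted p = 0.017), with relative log expression size factors (adjusted p = 0.039) and after the length and GC correction (adjusted p = 0.00037).

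The largest fall among J proteins with a mean of at least 1 CPM was in the ER. Dnajb11, also called ERdj3, a soluble partner that hands clients to Hspa5, stood at 42.1, 58.1 and 50.0 CPM in wild type and at 11.4, 10.3 and 7.17 CPM in knockout. It was 5.19-fold lower (log2 -2.37, SE 0.18, adjusted p = 8.48e-06), with every knockout library below every wild-type one, and stood at -3.51 with total counts and -2.18 after the length and GC correction. Its FPKM relative to Hspa5 was 0.0233, 0.0327 and 0.0278 in wild type against 0.0024, 0.00213 and 0.00139 in knockout, 0.0706 times the wild-type ratio. Dnajb9, also called ERdj4, another Hspa5 partner, went from 18.1, 23.2 and 24.5 CPM to 18.4, 12.9 and 10.8 CPM, with overlapping groups. Its fall passed (log2 -0.64, SE 0.19, adjusted p = 0.0311) but was lost when any of wild type replicates 2 and 3 and knockout replicates 2 and 3 was left out (adjusted p = 0.081 to 0.12), with the replicate block (adjusted p = 0.061) and after the length and GC correction (-0.43, adjusted p = 0.106). Dnajc3 relative to Hspa5 fell to 0.428 times its wild-type ratio. Hspa5 rose by 1.48 (log2) with TMM, so a gene at the median change of all genes (-0.09) also falls relative to it. Of 10 members listed for the ER 3 rose and 2 fell with TMM, and 2 were higher and 7 lower with total counts. After the length and GC correction 7 were higher and 1 lower. In the ER the major chaperones Hspa5 and Hsp90b1 were thus higher and the J partner Dnajb11 lower under both scalings and after that correction. The ratios of Dnajb11 and Dnajc3 to Hspa5, of Hsph1 and Dnajb1 to Hspa8, of Cct2 to Cct8 and of J protein to Hsp70 genes were chosen after the values were seen.

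Dnajc2, also called Zuotin or Mpp11, forms with Hspa14 the ribosome-associated complex that meets new protein chains. It fell from 74.9, 87.3 and 85.5 CPM to 58.1, 33.6 and 26.2 CPM (log2 -1.07, SE 0.24, adjusted p = 0.00869). Knockout replicate 1 stood between the wild-type libraries and the other knockout libraries. Both genes of that complex were thus lower with TMM and with total counts. After the length and GC correction Dnajc2 still passed in edgeR (log2 -0.79, adjusted p = 0.030) and Hspa14 did not (log2 -0.19, adjusted p = 0.13). Exons of Hspa14 overlap Gm45902 on the same strand. Dnajc17, a nuclear J protein gene, fell from 6.03, 5.74 and 4.41 CPM to 1.73, 2.66 and 2.96 CPM (log2 -1.15, SE 0.23, adjusted p = 0.00501), and its exons overlap Zfyve19 on the other strand. Dnajc13, an endosomal protein gene, and Dnajc11 of the mitochondrial membrane fell by 0.53 and 0.44 (adjusted p = 0.0341 and 0.00632), and neither passed after the length and GC correction. Without wild type replicate 2 or 3, or knockout replicate 1 or 2, Dnajc13 did not pass either (adjusted p = 0.069 to 0.16). Dnajc19, which belongs to the mitochondrial import motor, fell from 122, 116 and 113 CPM to 94.5, 88.1 and 90.7 CPM (log2 -0.36, SE 0.07, adjusted p = 0.00262), and was at -0.09, not a call, after that correction. Dnaja4 had 64 reads over the wild-type libraries and 0 over the knockout libraries, at least 9.34-fold lower against a floor of 3 counts over the group, a bound that covers counting error only. The remaining member that fell was Dnajc4.

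**Figure D4:**
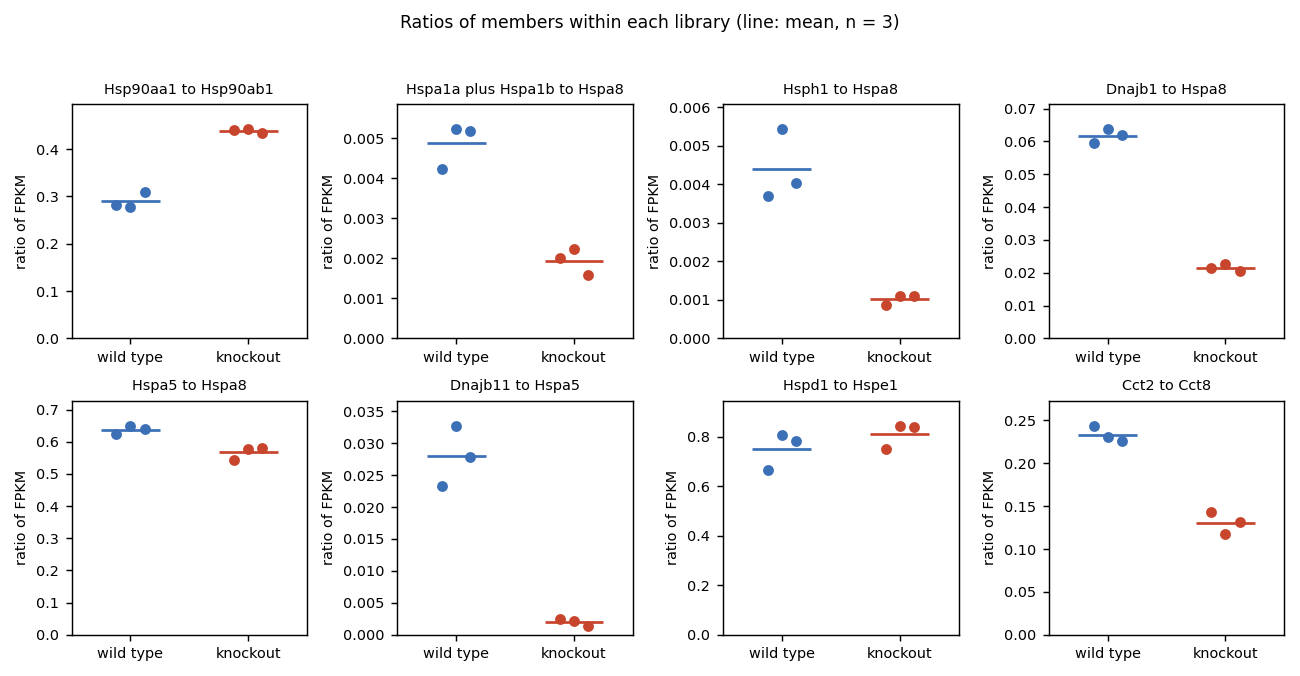
Ratios of the authors' FPKM values between members within each library (y axes from 0; points: libraries; line: mean of 3), which do not depend on how libraries are scaled. Hsp90aa1 gained on Hsp90ab1, the Hspa1a plus Hspa1b, Hsph1 and Dnajb1 values fell relative to Hspa8, Dnajb11 fell relative to Hspa5, Cct2 fell relative to Cct8, and Hspa5 was lower relative to Hspa8, and the Hspd1 to Hspe1 ratios overlap. Hspa8 and Hspa5 rose with TMM, so a gene at the median change of all genes (log2 -0.09) also falls relative to them.

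The members that rose were mostly the abundant ones. Of 20 members with a mean of at least 100 CPM 16 rose and 1 fell with TMM, 80.0% and 5% of them, and of all 1144 genes at that level 73.5% rose and 5.59% fell, so the share of abundant members that rose was near that of other abundant genes. Of the 51 members below 100 CPM 5 rose and 11 fell with TMM, 9.80% and 21.6% of them, where 12.8% and 15.1% of all 14330 genes below that level did so. With total counts 5 of the 20 were higher and 14 lower, and 0 of the 51 were higher and 44 lower. Over all genes at any level 4.24% were higher and 70.7% lower with total counts. Shares at each level were taken with TMM only, so these counts have no comparison at like level. Across the 71 members the log2 mean CPM and the log2 fold change had a Pearson r of 0.446 and a Spearman rho of 0.457, against 0.267 and 0.232 across all 15474 genes. The genes share the same 6 libraries, and the members' level enters both axes. The median change of the 20 abundant members was 0.68, and that of the 1144 genes 0.64.

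**Figure D5:**
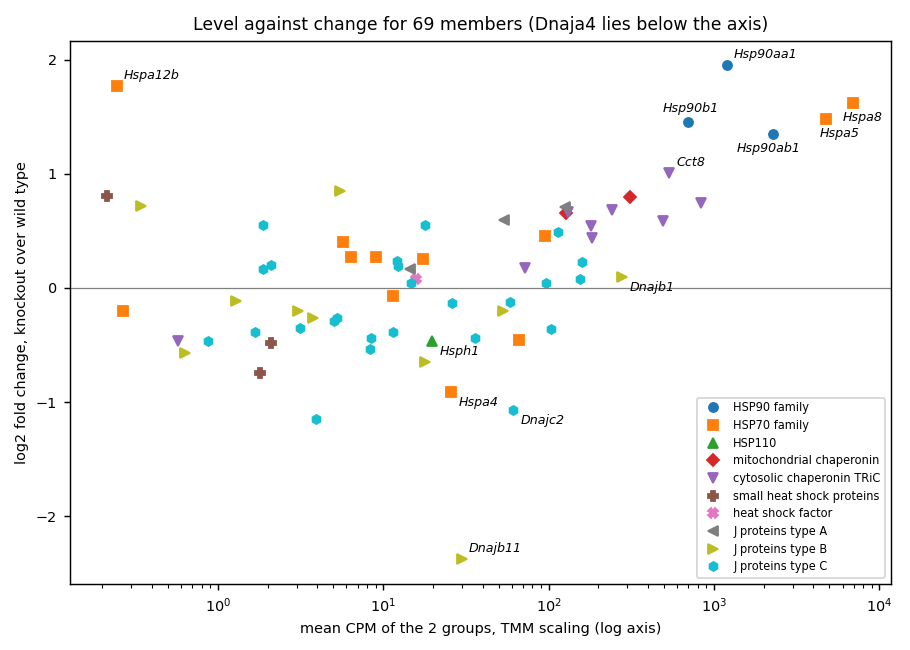
Mean CPM of both groups with TMM scaling (x axis, log) against log2 fold change, knockout over wild type (y axis), for 69 members by family, with Dnaja4 off the plot. Hspa8, Hspa5 and the Hsp90 genes lie at the upper right, members below 0 mostly lie at lower levels, with Dnajb11 lowest, and Hspa12b, not called, lies at the upper left. With total counts the TRiC, Hspd1 and Hspe1 changes lie below 0.

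As a share of all counts the 71 members together took 1.76, 1.85 and 1.84% in wild type against 1.96, 1.97 and 2.04% in knockout. The Hsp70 family went from 0.918 ± 0.0191% to 1.20 ± 0.0475% and the Hsp90 family from 0.318 ± 0.0106% to 0.417 ± 0.0131% (mean ± SD, n = 3 each). The 8 TRiC subunits went from 0.301 ± 0.0108% to 0.224 ± 0.0066% and the J proteins from 0.221 ± 0.0145% to 0.103 ± 0.00117%. Within the members' total, counts thus shifted towards Hspa8, Hspa5 and the 3 Hsp90 genes and away from the J protein genes. Of the 12 Hsp70 genes only Hspa8 and Hspa5 were higher with total counts, and 8 were lower.

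Partners that serve these machines were read from the same fit, in which 17.2% of all genes were higher and 14.4% lower with TMM. With total counts 70.7% of all genes were lower. Of 19 Hsp90 partner genes 5 rose and 4 fell with TMM (26.3% and 21.1%), and 0 were higher and 19 lower with total counts. After the length and GC correction 8 were higher and 2 lower, where 20.7% and 9.06% of all genes were called. Fkbp4, a peptidyl-prolyl isomerase of steroid receptor complexes (log2 0.91, SE 0.07), Cdc37, which brings kinases to Hsp90 (0.86, SE 0.09), Ahsa1, which speeds its ATPase (0.58, SE 0.05), and the phosphatase Ppp5c (0.62, SE 0.09) were higher with TMM, and total counts put them lower (-0.22, -0.27, -0.56 and -0.52). Of 11 Hsp70 partner genes 1 rose and 4 fell with TMM (9.09% and 36.4%). After the length and GC correction 4 of them were higher and 3 lower. Stub1, which encodes the ubiquitin ligase CHIP that marks chaperone clients for destruction, fell from 204 ± 17.0 to 72.3 ± 27.2 CPM (n = 3 each, log2 -1.50, SE 0.23, edgeR adjusted p = 9.48e-04). The exchange factors Bag1 (-0.82), Bag5 (-0.45) and Bag4 (-0.76) also fell, and Bag4 did not pass with the replicate block (adjusted p = 0.065), after the length and GC correction (adjusted p = 0.17) or without any of wild type replicates 1 and 2 and knockout replicates 1 and 2 (adjusted p = 0.077 to 0.11). All 11 were lower with total counts.

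Of 12 genes of prefoldin, which passes actin and tubulin to TRiC, and of TRiC partners 1 rose and 5 fell with TMM (8.33% and 41.7%). Pfdn5 rose by 0.96 (log2, SE 0.10, and -0.17, not a call, with total counts), and Pdrg1 (-0.41), Uri1 (-0.93) and Txndc9 (-0.47) were among those that fell. Txndc9 did not pass after the length and GC correction (adjusted p = 0.23) or without wild type replicate 2 or 3 (adjusted p = 0.053 and 0.05), nor did Uri1 without wild type replicate 3 (adjusted p = 0.056). Of 10 mitochondrial partner genes 3 rose and 2 fell with TMM (30% and 20%) and all 10 were lower with total counts. Grpel1, the exchange factor of Hspa9 (log2 0.65, SE 0.06, and -0.48 with total counts), and the protease Clpp (0.45, SE 0.06, and -0.68) were higher with TMM, and the protease Lonp1 (-0.76) and Hscb, a J protein of iron-sulphur cluster assembly (-0.82), fell.

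The authors' deposited table classes 6 members as up, Hspa8, Hspa5, the 3 Hsp90 genes and Cct8, and 4 as down, Dnaja4, Dnajb11, Dnajc17 and Dnajc2, with the other 61 as stable.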

How the data were processed

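Members and gene lists were chosen with earlier results of these data known. Per the file headers, the authors deposited unnormalized counts of reads for each gene, together with log2 fold changes and adjusted p-values of their own comparison. A further set of deposited values has no stated unit and was taken as FPKM. Counts divided by these values and by the library total give a nearly constant length for abundant genes such as Hspa8. For other members, such as Dnajc15, the implied length differed between libraries. Ratios of these values can therefore also reflect the length used in each library. Among the tools in the submitters' processing notes are HISAT2 2.2.1 and featureCounts 2.0.1, with the build mm10, and fastp 0.22.0 and DESeq2 1.32.0 are listed with them. Strand settings are not given in the sources used here.

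The deposited counts were fitted over all genes with edgeR 4.0.16 in R 4.3.3 (filterByExpr, TMM, quasi-likelihood test, two-sided, group only), with Benjamini-Hochberg adjustment over 15474 genes and a call under 0.05. A standard error is the log2 fold change over the square root of F. CPM uses TMM-scaled library sizes. Genes were matched to GENCODE vM21 (GRCm38, that is mm10): 18470 of 18491 IDs, and all 71 members, of which 25 have exons overlapping a gene on the opposite strand. 1 member is counted but not reported here. The other family members outside the J proteins could be named, and of the J proteins the 6 most abundant and up to 6 largest rises and falls. Up to 4 genes of lowest p were named per partner list. Dnajb6, Dnajc4 and Dnaja4 were named after their values were seen. Alternatives were other scalings, no low-count filter, DESeq2 1.42.0, each library left out, the replicate block, and a loess correction for exon length and GC content. The procedure was tested on simulated counts.

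Replicates of a group differed by 13.8 to 39.4 times the counting noise (chi-square per gene), which is more than counting noise alone gives. This cannot tell separate animals from separate preparations or runs of the same RNA.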

Additional observations from a re-analysis of the deposited data

How the results depend on the processing

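Of the 71 members 35 lay above 0 with TMM and below 0 with total counts, 6 lay above 0 with both and 30 below 0 with both. With total counts 656 genes were higher and 10936 lower, 5 members were higher and 58 lower, the median member stood at -0.97, and 5.66% of calls over all genes were in the higher direction against 54.5% with TMM. Members and partners above 0 with TMM that lay below 0 with total counts were Hspa13 (-0.86), Hspa1a (-0.88), Hspa1b (-0.73), Hspa2 (-0.86), Hspa9 (-0.68), Cct2 (-0.96), Cct3 (-0.45), Cct4 (-0.59), Cct5 (-0.39), Cct6a (-0.47), Cct7 (-0.54), Cct8 (-0.13), Tcp1 (-0.69), Hsf1 (-1.06), Hspd1 (-0.34), Hspe1 (-0.47), Hspb1 (-0.32), Dnajb1 (-1.03), Dnajc3 (-0.90), Dnajc9 (-1.06), Dnaja1 (-0.43), Dnajc15 (-0.64), Dnajb12 (-0.28), Dnaja2 (-0.54), Dnajc30 (-0.58), Fkbp4 (-0.22), Ahsa1 (-0.56), Cdc37 (-0.27), Ppp5c (-0.52), Pfdn5 (-0.17), Grpel1 (-0.48), Clpp (-0.68), Hsf2 (-0.92) and Hsbp1 (-1.11). This list holds only members and partners named above, so not all of the 35 members appear in it. The cause of the sign changes was not tested. The length and GC correction left 1400 genes and 6 members lower, with a median member of 0.34. With the replicate block added to it 1198 genes and 5 members were lower, with a median of 0.34.

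Same-numbered libraries showed little shared deviation (correlations 0.041, -0.0051 and 0.0477, against -0.0755 to 0.0288 for other pairs). With 3 libraries per group this cannot exclude a weak pairing by number. With the replicate block alone 2467 genes were higher and 1906 lower, and 21 members were higher and 10 lower. Leaving out 1 library at a time gave 2226 to 2542 genes higher and 1356 to 2142 lower, with 1356 without wild type replicate 2 and 1419 without wild type replicate 3. It gave 21 members higher each time, 9 to 13 lower, and a median of 0.09 to 0.16. Leaving out a library moved the changes of near-zero or barely detected genes across 0: Hspa4l ranged from -0.12 to 0.0195 (0.0195 without wild type replicate 2, 0.0093 without knockout replicate 2), Hspa1l from -0.76 to 0.30 (0.14 and 0.30 without wild type replicates 2 and 3) and Hsbp1 from -0.0307 to 0.14 (-0.0007, -0.0307 and -0.0143 without wild type replicates 2 and 3 and knockout replicate 3). Hspa4l was also above 0 with the length and GC correction (0.24) and with the block added to it (0.24), and Hspa1l with the block (0.54) and with both (0.62). Hspb11 passed without knockout replicate 2 (-1.22, adjusted p = 0.0289) and with total counts (-1.87). The 21 members that rose did so under DESeq2, the other scalings except total counts, and no low-count filter. Members with few reads, such as Hspa1l, Hspa12b and Hspb1, are limited by depth.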
